A study of Mus musculus with 6 samples.

Results

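Immune checkpoints are pairs of surface proteins through which tumour cells and myeloid cells hold back lymphocytes, and 9 genes of these pairs were described across the cell classes of 4T1 mouse breast tumours. They were taken by symbol from the gene lists of all 6 libraries, each symbol counted once, and all 9 were present among 27933 genes. The set holds the ligands Cd274 (PD-L1), Pdcd1lg2 (PD-L2), Lgals9 (galectin-9) and Vsir (VISTA, which also acts as a receptor) and the receptors Pdcd1 (PD-1), Ctla4, Lag3, Tigit and Havcr2 (TIM-3). 4T1 is a mammary carcinoma line of Balb/c mice, and the tumours were grown in Balb/c mice. In 3 libraries the tumours had received FVIO-MHT: FVIOs, which are magnetic iron oxide particles, were placed in the tumour at 0.1 mg per cm3 of its volume, and the animals then spent 10 min in an alternating magnetic field of 365 kHz. The other 3 came from tumours given PBS, and the labels do not say whether these were put in the field. All were taken at 24 h and measured by Drop-seq, a droplet method that counts each captured RNA molecule once per cell by its unique molecular identifier (UMI). The libraries are called FVIO-MHT 1 to 3 and PBS 1 to 3. The labels do not say that each library came from a separate mouse, so the p-values below measure the spread between libraries, which may be technical.

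PD-L1 and PD-L2 bind PD-1 on activated T cells and reduce signalling from the T cell receptor, and PD-L1 is found on many cells after exposure to interferon gamma. CTLA-4 competes with the co-stimulatory receptor CD28 for CD80 and CD86 and is carried by activated and regulatory T cells. LAG-3 and TIGIT are further inhibitory receptors of T and natural killer (NK) cells, while TIM-3, for which galectin-9 is one ligand, is also found on macrophages and dendritic cells, and VISTA is mostly a protein of myeloid cells.

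The promoters of 3 members are shown, that of Cd274 because it gave the most UMIs and those of Havcr2 and Lgals9 because they held motifs that were searched. Each is the 250 bases before and 50 after the RefSeq start on GRCm38.p6, read 5' to 3' on the gene's strand. Capitals mark motif matches, and the Cd274 window has none.
Cd274: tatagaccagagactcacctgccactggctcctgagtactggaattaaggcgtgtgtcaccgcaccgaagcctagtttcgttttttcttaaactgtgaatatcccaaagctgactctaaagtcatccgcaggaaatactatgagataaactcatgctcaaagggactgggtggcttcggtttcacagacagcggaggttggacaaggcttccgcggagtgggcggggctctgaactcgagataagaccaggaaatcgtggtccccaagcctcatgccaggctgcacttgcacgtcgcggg
Havcr2: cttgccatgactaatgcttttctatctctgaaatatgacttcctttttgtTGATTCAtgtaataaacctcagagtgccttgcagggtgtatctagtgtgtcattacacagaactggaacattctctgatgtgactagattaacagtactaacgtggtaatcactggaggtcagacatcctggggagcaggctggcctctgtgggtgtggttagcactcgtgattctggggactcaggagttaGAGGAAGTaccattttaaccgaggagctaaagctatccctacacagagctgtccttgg
Lgals9: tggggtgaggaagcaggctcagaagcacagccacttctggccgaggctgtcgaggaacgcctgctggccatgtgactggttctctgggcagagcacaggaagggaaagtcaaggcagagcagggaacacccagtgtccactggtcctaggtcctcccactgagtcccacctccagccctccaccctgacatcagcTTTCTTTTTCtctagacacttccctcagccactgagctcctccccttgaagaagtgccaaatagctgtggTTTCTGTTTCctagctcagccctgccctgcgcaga
The Cd274 window is chr19:29367188-29367487 on the plus strand, the Havcr2 window chr11:46454681-46454980 on the plus strand and the Lgals9 window chr11:78984875-78985174 on the minus strand. RefSeq windows were available for 8 of the 9 members, all but Lag3. Both strands were searched for 4 motifs: TTCNNNGAA (the gamma-activated site), the interferon response element (GAAA repeated after any 2 bases), TGANTCA (AP-1) and GAGGAAGT (PU.1). Of 32851 mouse promoters of this length, 8.3% held TTCNNNGAA, 3.44% the interferon response element, 7.81% TGANTCA and 3.2% GAGGAAGT. Lgals9 held 2 matches to the interferon response element, both on the opposite strand, from positions 196 and 266 of the window, counted from 1 at its 5' end. Havcr2 held 1 TGANTCA match from position 51 and 1 GAGGAAGT match from position 243. The other 6 windows held none of these letters.

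On the GRCm38 annotation all 9 members are protein-coding. Cd274 (ENSMUSG00000016496, chr19:29367455-29388095, plus strand) and Pdcd1lg2 (ENSMUSG00000016498, chr19:29410919-29471161, plus strand) are neighbours, 22823 bases apart. The antisense gene AC119228.1 shares 511 exon bases with Cd274 and was not among the counted genes. As the use of strand in the counting is not stated, reads of such a pair cannot be told apart. Ctla4 (ENSMUSG00000026011, chr1:60887000-60915832, plus) and Pdcd1 (ENSMUSG00000026285, chr1:94038305-94052553, minus) lie on chromosome 1. Havcr2 (ENSMUSG00000020399, chr11:46454935-46481255, plus) and Lgals9 (ENSMUSG00000001123, chr11:78962974-78984946, minus) lie on chromosome 11. Lag3 (ENSMUSG00000030124) is at chr6:124904361-124911705 on the minus strand, Tigit (ENSMUSG00000071552) at chr16:43648867-43664146 on the minus strand and Vsir (ENSMUSG00000020101) at chr10:60346851-60372684 on the plus strand. Vsir overlaps the span of Cdh23 on the opposite strand and shares 0 exon bases with it.

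Barcodes with at least 200 detected genes were kept as cells, which left 6730 of 30000, between 332 and 2325 per library with a median of 400 to 834 UMIs per cell. Clusters were named from marker genes, with the 9 members left out of the genes used for clustering. Neutrophil-like cells made up 79.8%, 37.8% and 0.258% of the cells of FVIO-MHT 1, 2 and 3, and 6.02%, 0.616% and 2.07% of those of PBS 1, 2 and 3. The labels name murine breast cancer cells as the cell type of every library, yet the tumour epithelial-like class held 0 of 332 cells in FVIO-MHT 1, which allows a share of up to 0.904%, and 22.6% to 74.3% of the cells elsewhere. FVIO-MHT 3 also stood apart: it held 585 of the 607 cells of an unnamed cluster led by haemoglobin genes and 89 of the 96 cells of macrophage/monocyte-like cluster 15. PBS 2 and 3 shared 33 kept barcodes, 31 of them in the same class in both, while other pairs of libraries shared at most 1. Those 33 barcodes held 3 member UMIs in PBS 2 and 12 in PBS 3, and leaving them out, a choice made after seeing the data, moved 1 level of those below by over 1.5 times (Lgals9 in endothelial-like cells of PBS 2). Of the UMIs of a member over all barcodes, between 30.1% (Tigit) and 70.4% (Lag3) lay in barcodes under the gene minimum. For Cd274 this was 1446 of 2205 UMIs, or 65.6%. Doublets were not removed. Levels are counts per 1000000 UMIs (CPM), from the UMIs summed over a class in a library, given where the class has at least 20 cells. Intervals are 95% (exact Poisson for CPM, Clopper-Pearson for shares) and, like the limits set by a count of 0 (3 counts of the total), cover counting error only.

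Cd274, the gene of a PD-1 ligand, was highest in neutrophil-like cells. Its level there was 961 CPM (interval 807 to 1135) in FVIO-MHT 1, 1448 (1275 to 1639) in FVIO-MHT 2 and 871 (558 to 1296) in PBS 1, the 3 libraries with at least 20 such cells. The mean was 1093 ± 311 CPM (SD, n = 3). A Cd274 UMI was found in 83 of 265, 143 of 397 and 16 of 65 of these cells, or 31.3%, 36.0% and 24.6% (22.0%, 30.2% and 21.5% after thinning each cell to 300 UMIs). Neutrophil-like cells held 420 of the 759 Cd274 UMIs, 55.3%, with 5.94% of all UMIs. Per cell, 149 of them carried 1 Cd274 UMI, 59 carried 2, 18 carried 3 and 19 carried 4 or more, with a maximum of 9. The class joins clusters 7 and 9. Cluster 7, led by Cxcr2 and Hdc, held most of these cells in FVIO-MHT 2 and PBS 1, and cluster 9, led by Il1f9 and Cxcl3, in FVIO-MHT 1. In FVIO-MHT 2, the library with at least 20 cells of both, Cd274 was at 1337 CPM in cluster 7 and 2385 CPM in cluster 9.

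Macrophage/monocyte-like cells came next. Their Cd274 level was 318, 494 and 18.0 CPM in FVIO-MHT 1 to 3, and 220, 269 and 438 CPM in PBS 1 to 3. FVIO-MHT 3 was the low library, with 4 Cd274 UMIs in 440 cells, and the groups overlapped. In each of the 3 libraries with both classes, the neutrophil-like level was the higher one, and the ranges over libraries did not overlap. With classes taken from markers alone, 4 libraries had at least 20 neutrophil-like cells, at 908, 1245 and 0 CPM in FVIO-MHT 1 to 3 and 646 CPM in PBS 1 (mean 699.8 ± 527 CPM, SD, n = 4), and the ranges of these classes then overlapped. The 0 was in 22 cells of FVIO-MHT 3. In tumour epithelial-like cells Cd274 was at 42.6 and 3.53 CPM in FVIO-MHT 2 and 3, and at 30.9, 44.9 and 67.5 CPM in PBS 1 to 3. FVIO-MHT 3 was again the lowest, with 4 UMIs in 1018 cells. These levels lay under the macrophage/monocyte-like level of the same library in each of the 5. A Cd274 UMI was found in 3.46% to 7.91% of the tumour epithelial-like cells of the other 4 libraries, at median depths of 935 to 1349 UMIs, compared with 389 to 500 in neutrophil-like cells.

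Free RNA in droplets adds UMIs of a gene to cells that do not express it, so the neutrophil markers were set beside Cd274 in the other classes. The 10 neutrophil markers summed to between 70398 and 111216 CPM in neutrophil-like cells. In macrophage/monocyte-like cells of the same 3 libraries they were at 6.01%, 5.69% and 4.03% of that level (FVIO-MHT 1 and 2 and PBS 1), while Cd274 was at 33.1%, 34.1% and 25.3% of its own. In tumour epithelial-like cells the markers were at 1.13% of that level in FVIO-MHT 2 and 0.376% in PBS 1, and Cd274 at 2.94% and 3.55%. Cd274 stood above the share of the neutrophil markers in both classes and in each library compared. These markers named the classes and could enter the clustering, while the members were left out of it. Cells rich in the markers were thus sorted into the neutrophil-like class, which by itself lowers the markers elsewhere. Such a comparison therefore cannot measure free RNA, here or for the members below. No profile of free RNA was estimated. The part of free RNA or doublets in these levels, and in such comparisons below, was not tested.

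**Figure D1:**
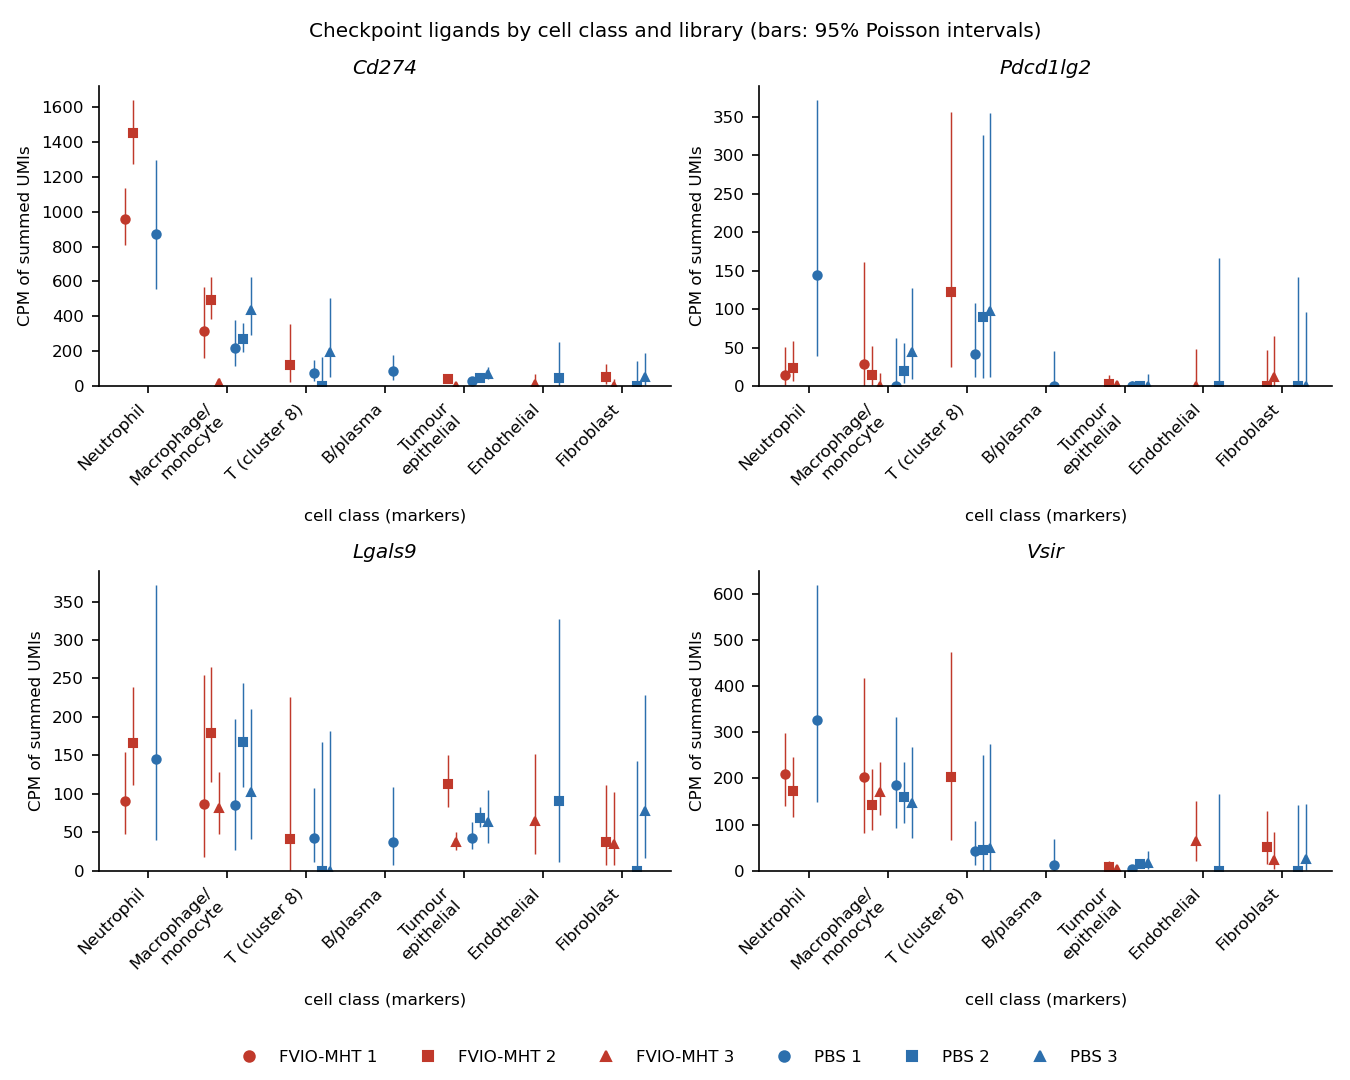
Level of the 4 ligands (vertical axis, CPM of UMIs summed over a class) in each of 7 marker-defined classes (horizontal axis), with a point for every library that had 20 or more such cells and bars for 95% Poisson intervals. Cd274 is highest in the 3 neutrophil-like points, at 871 to 1448 CPM, Vsir is in both myeloid classes, and Lgals9 is spread over most classes.

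Pdcd1lg2, the gene of the second PD-1 ligand, was rare, with 36 UMIs in 35 cells. In cluster 8, named T-like below, it was at 122 CPM in FVIO-MHT 2 and at 42.2, 90.4 and 98.3 CPM in PBS 1 to 3, from 2 to 4 UMIs each. Neutrophil-like cells had 13.9 and 23.0 CPM in FVIO-MHT 1 and 2 and 145 CPM (39.6 to 372) in PBS 1. The ranges of both classes overlapped, so their order cannot be read at this depth. Tumour epithelial-like cells held 4 Pdcd1lg2 UMIs in 2980 cells.

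Lgals9, which encodes the glycan-binding protein galectin-9, was the most widely spread member. Neutrophil-like cells had 90.5 and 167 CPM in FVIO-MHT 1 and 2 and 145 CPM in PBS 1. Macrophage/monocyte-like cells had 86.9, 179 and 81.1 CPM in FVIO-MHT 1 to 3 and 84.8, 167 and 102 CPM in PBS 1 to 3. These classes overlapped. Tumour epithelial-like cells had 113 and 37.0 CPM in FVIO-MHT 2 and 3 and 43.0, 68.6 and 63.3 CPM in PBS 1 to 3, and held 234 of the 420 Lgals9 UMIs, or 55.7%, with 64.8% of all UMIs. In FVIO-MHT 2 and PBS 1 the Lgals9 level there was 67.7% and 29.6% of the neutrophil-like level, where the neutrophil markers were at 1.13% and 0.376%. Endothelial-like cells, at 65.1 and 90.6 CPM in FVIO-MHT 3 and PBS 2, lay in the same range, though without the shared barcodes PBS 2 had 47.8 CPM from 1 UMI.

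Vsir, which encodes VISTA, was a gene of both myeloid classes. Macrophage/monocyte-like cells had 203, 143 and 171 CPM in FVIO-MHT 1 to 3 and 186, 160 and 146 CPM in PBS 1 to 3, a mean of 168 ± 23.3 CPM (SD, n = 6). The 6 libraries stayed between 143 and 203 CPM, FVIO-MHT 3 included, where Cd274 was low, and the groups overlapped. Neutrophil-like cells had 209 and 172 CPM in FVIO-MHT 1 and 2 and 327 CPM in PBS 1, overlapping the macrophage/monocyte-like range. The share of macrophage/monocyte-like cells with a Vsir UMI was 9.38%, 8.52% and 7.27% in FVIO-MHT 1 to 3 and 10.0%, 10.4% and 10.9% in PBS 1 to 3. After thinning the groups overlapped, at 4.61% to 5.83% and 4.77% to 5.29%. With classes taken from markers alone, the macrophage/monocyte-like cells had the highest mean of the classes, 191 CPM. The myeloid classes held 111 and 73 of the 258 Vsir UMIs, and tumour epithelial-like cells 33. Cluster 8 had 203 CPM in FVIO-MHT 2 (5 UMIs) and 42.2 to 49.1 CPM in the PBS libraries.

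Of the receptors, Ctla4 and Pdcd1 had most of their UMIs in cluster 8. This cluster of 375 cells was named T-like from 6 T cell markers, but its 10 leading genes included Gzma, an NK marker, and no listed T cell marker, so it is called by its number. It held 0, 46 and 12 cells of FVIO-MHT 1 to 3 and 235, 40 and 42 cells of PBS 1 to 3. A finer clustering split it into T-like (290 cells) and NK-like (83 cells) groups.

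Ctla4 was the receptor with the most UMIs, 154 in 97 cells, and cluster 8 held 135 of them, or 87.7%. Its level there was 813 CPM (496 to 1255) in FVIO-MHT 2 and 992 (802 to 1214), 452 (217 to 831) and 393 (170 to 775) CPM in PBS 1 to 3. The FVIO-MHT library lay within the PBS range. A Ctla4 UMI was found in 21.7% of cluster 8 cells in FVIO-MHT 2 and in 23.0%, 20% and 14.3% of those of PBS 1 to 3 (18.2%, 23.4%, 10.7% and 8.54% after thinning). Macrophage/monocyte-like cells, which are not known for Ctla4, had 0 such cells in 5 libraries and 3 of 100 in PBS 1, at a median of 445 UMIs against 324 in cluster 8. PBS 1 was also the library where Ctla4 UMIs were in B/plasma-like cells (3 UMIs) and held 7 of the 8 in tumour epithelial-like cells. In PBS 1 Ctla4 was at 3.77% of the cluster 8 level in B/plasma-like cells, where the summed T cell markers were at 6.18% of theirs. It was at 6.83% in macrophage/monocyte-like cells (markers 0.934%) and at 1.21% in tumour epithelial-like cells (markers 0.663%), so it stood above the markers' share in those classes of this library and under it in B/plasma-like cells. In the finer clustering, the T-like part had 1248 CPM in FVIO-MHT 2 and 1047 CPM in PBS 1, while the NK-like part held 1 Ctla4 UMI in each of them and 6 in PBS 2.

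Pdcd1, the gene of PD-1, gave 21 UMIs in 20 cells, of which 16 UMIs were in cluster 8. It was at 122 CPM in FVIO-MHT 2 and at 52.8, 181 and 197 CPM in PBS 1 to 3. The lowest was PBS 1, the library with the most cluster 8 cells, and the FVIO-MHT library lay inside the PBS range. No Pdcd1 UMI was found in 1121 macrophage/monocyte-like or 752 neutrophil-like cells. In the finer clustering, 10 of the 16 UMIs were in the 83 NK-like cells. T and NK markers were not set against each other in the naming, so this part may hold T cells. Of cluster 8 cells with a UMI of a T cell marker, Pdcd1 was in 4 of 17 (Cd8b1), 3 of 17 (Cd8a) and 0 of 15 (Cd4). It was in 2 of 26 with a UMI of Klrd1, an NK marker.

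Lag3 was close to the detection limit, with 8 UMIs in all. Cluster 8 held 3 of them, 1 in FVIO-MHT 2 and 2 in PBS 3, and tumour epithelial-like cells of PBS 2 held 4. PBS 1 had 0 in 235 cluster 8 cells, which allows up to 31.7 CPM. No order of classes can be read from so few molecules.

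Tigit, an inhibitory receptor of T and NK cells that binds PVR, was at 122 CPM in cluster 8 of FVIO-MHT 2 and at 179, 90.4 and 98.3 CPM in that of PBS 1 to 3. Tumour epithelial-like cells had a lower and even level: 20.05 and 17.6 CPM in FVIO-MHT 2 and 3 and 15.5, 16.0 and 21.1 CPM in PBS 1 to 3, a mean of 18.1 ± 2.46 CPM (SD, n = 5). As this class was large, it held 67 of the 95 Tigit UMIs, 70.5%, with 64.8% of all UMIs. The T cell markers, 10 of which were in the files, summed in tumour epithelial-like cells to 0.474%, 0.663%, 0.410% and 0.913% of their cluster 8 level (FVIO-MHT 2 and PBS 1 to 3). Tigit was at 16.4%, 8.62%, 17.7% and 21.5% of its own. Ctla4 had 0 UMIs in the tumour epithelial-like cells of FVIO-MHT 2 and PBS 2 and 3, and 7 in PBS 1. Tigit had 0 UMIs in neutrophil-like cells and 1 in macrophage/monocyte-like cells. No annotated gene overlaps Tigit on GRCm38. Each level in tumour epithelial-like cells rests on 5 to 25 UMIs, from 1.77% to 2.95% of cells at median depths of 625.5 to 1349 UMIs (0.263% to 0.668% after thinning), compared with 1 of 1121 macrophage/monocyte-like cells. Whether the Tigit UMIs in tumour epithelial-like cells came from free RNA, doublets or those cells was not tested.

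**Figure D2:**
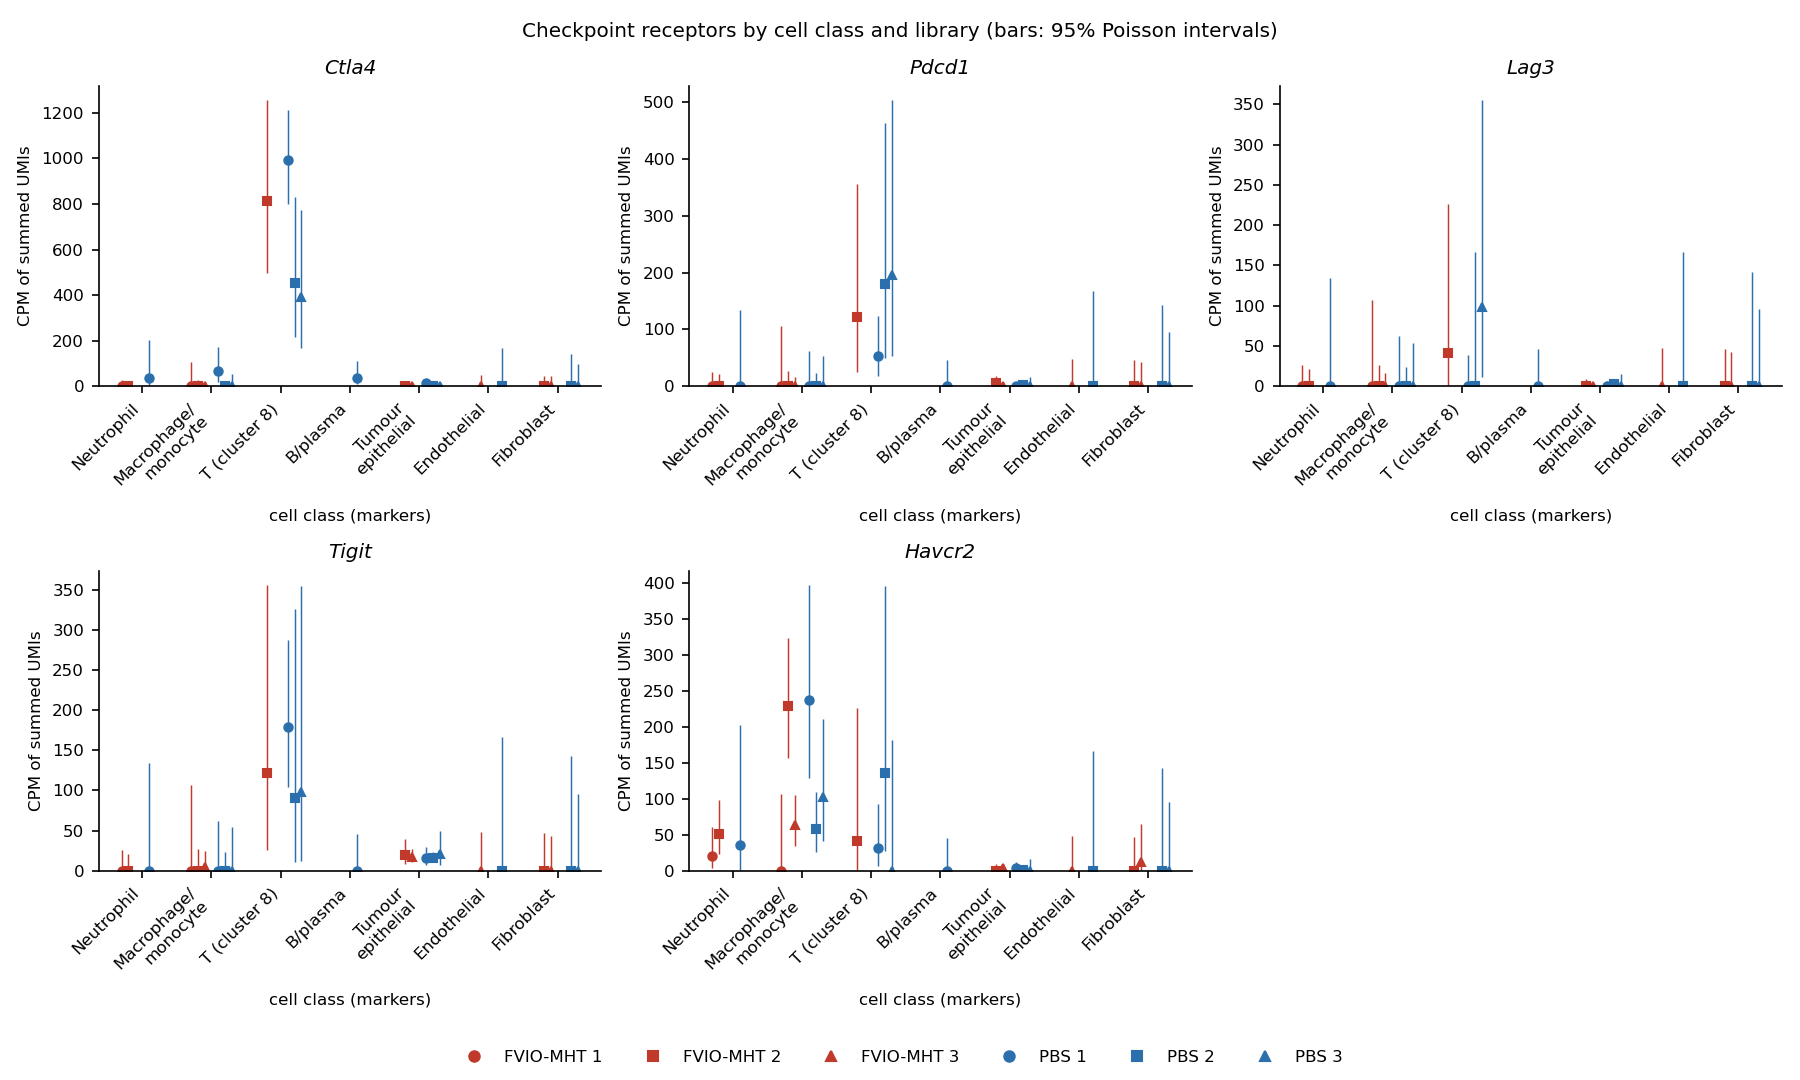
Level of the 5 receptors (vertical axis, CPM of UMIs summed over a class) in each of 7 marker-defined classes (horizontal axis), with a point for every library that had 20 or more such cells and bars for 95% Poisson intervals. Ctla4 and Pdcd1 stand out in T-like cluster 8, Havcr2 in macrophage/monocyte-like cells, and Tigit has low points near 18.1 CPM in tumour epithelial-like cells.

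**Figure D3:**
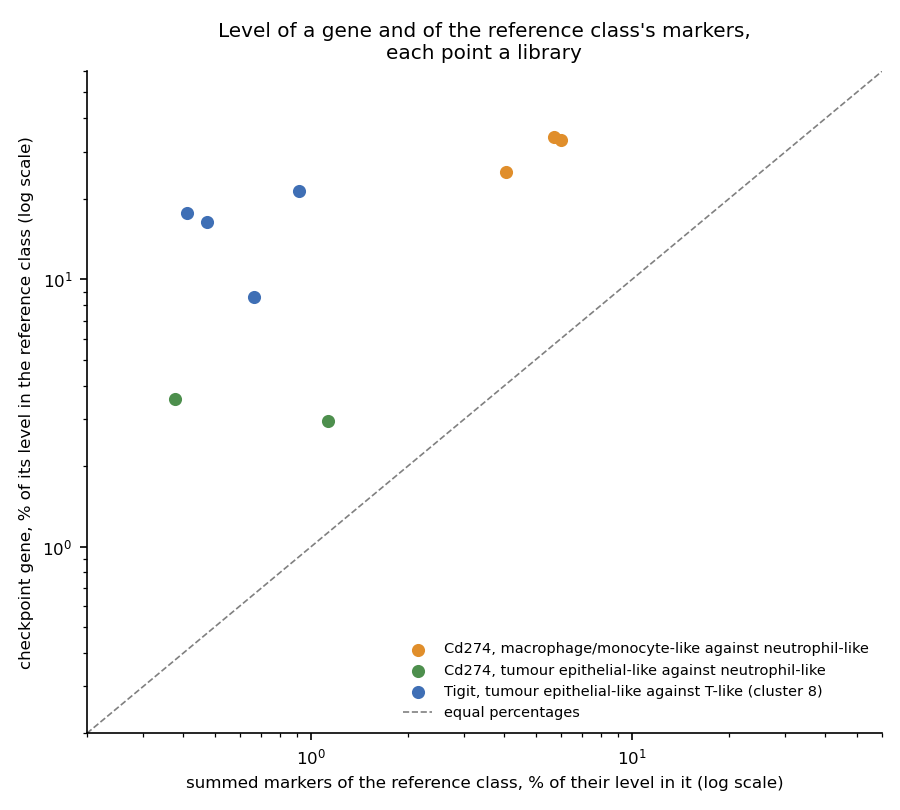
Level of Cd274 or Tigit (vertical axis, log scale) and of the summed markers of the reference class (horizontal axis, log scale), both as a percentage of their level in that reference class, 1 point per library. All 9 points lie above the dashed line of equal percentages, such as Tigit at 8.62% to 21.5% beside T cell markers at 0.410% to 0.913%. The pairs of gene and class drawn here were picked. Pairs not drawn fell on both sides of the line, such as Ctla4 in B/plasma-like cells of PBS 1, at 3.77% beside T cell markers at 6.18%.

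Havcr2, the gene of TIM-3, had its highest mean level in macrophage/monocyte-like cells, 115 ± 97.3 CPM (SD, n = 6), which held 76 of its 110 UMIs, or 69.1%. Its level there was 0, 229 and 63.1 CPM in FVIO-MHT 1 to 3 and 237, 57.7 and 102 CPM in PBS 1 to 3. The groups overlapped, and the 0 in 64 cells of FVIO-MHT 1 allows up to 86.9 CPM. The finer clustering split this class, and a part with Havcr2 among its 10 leading genes (with Mmp19, Ms4a4c and Ccr2) held 3, 170 and 47 cells of FVIO-MHT 1 to 3 and 59, 34 and 41 cells of PBS 1 to 3. FVIO-MHT 2 and PBS 1, the libraries with the highest Havcr2, had the most such cells. As this part was picked for its Havcr2, the match is a description only. Its role in the spread between libraries was not tested. Over the whole macrophage/monocyte-like class, a Havcr2 UMI was found in 0% to 14.0% of cells per library (0% to 7.15% after thinning). In tumour epithelial-like cells, which were deeper, the share was 0% to 0.433%. Neutrophil-like cells had 20.9 to 51.7 CPM and tumour epithelial-like cells at most 3.53 CPM. Cluster 8 had 40.6 CPM in FVIO-MHT 2 and 31.7, 136 and 0 CPM in PBS 1 to 3, from 7 UMIs in all, so its range and that of neutrophil-like cells overlapped the macrophage/monocyte-like one. In cluster 8 Havcr2 was at 17.7%, 13.3%, 235% and 0% of the macrophage/monocyte-like level (FVIO-MHT 2 and PBS 1 to 3), and the macrophage/monocyte markers at 24.7%, 7.68%, 24.6% and 11.4% of theirs, so Havcr2 lay under the markers' share in FVIO-MHT 2 and PBS 3.

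Of the 375 cells of cluster 8, 263 had no UMI of the 5 receptors, 98 had UMIs of 1 receptor and 14 of 2 or more. The share with any was 30.4% in FVIO-MHT 2 and 30.2%, 27.5% and 33.3% in PBS 1 to 3. Ctla4 UMIs were in 55 of 160 cluster 8 cells with a UMI of Icos, a co-stimulatory receptor of activated T cells, or 34.4%, and in 25 of 215 without, or 11.6%. Median depths were 388 and 326 UMIs, and most of these cells came from PBS 1. Foxp3, the defining gene of regulatory T cells, had a UMI in 3 cells of cluster 8, of which 2 had Ctla4 and 2 had Tigit. These cells were deeper, with a median of 1377 UMIs against 348 in cluster 8 cells without Foxp3. Icos and Foxp3 were singled out here with values in view. In neutrophil-like cells of FVIO-MHT 2, 6 cells had both Cd274 and Vsir, where 9.37 follow from the product of their shares. In FVIO-MHT 1 the numbers were 3 and 6.26, and in PBS 1 they were 2 and 1.72. In macrophage/monocyte-like cells they lay on both sides, such as 5 and 3.85 in PBS 2 and 0 and 2.17 in PBS 3. Counts this small do not show whether Cd274 and Vsir were found together more or less often than their shares give.

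Genes with the most similar pattern were found by Pearson's r over 33 sums (11 classes in 6 libraries, log2 of CPM + 10). The sums share libraries, depth and classes, so r is a description only. For Cd274 they were Tnfrsf1b (r = 0.867), Gsap (0.853) and C130026I21Rik (0.840). For Vsir they were Lilr4b (0.860), Ccr1 (0.847) and Osm (0.847). Ctla4 was closest to Icos (0.941), Gzmb (0.919) and Lck (0.916), and Havcr2 to Lst1 (0.807), Cyth4 (0.805) and C1qc (0.787). Lgals9 had weaker matches, led by Coq5 (0.725), Mcfd2 (0.701) and Ypel5 (0.684).

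The design's main comparison, FVIO-MHT with PBS, was first made over all cells of a tumour. Cd274 was at 822, 391.8 and 8.01 CPM in FVIO-MHT 1 to 3 and at 79.5, 63.5 and 117 CPM in PBS 1 to 3. Replicates 1 and 2 of FVIO-MHT lay above and replicate 3 below every PBS library. The means were 407 ± 407 CPM and 86.6 ± 27.3 CPM (SD, n = 3 each). The edgeR quasi-likelihood test gave a log2 fold change of 2.77 ± 1.30 (SE), adjusted p = 0.878. The 2 libraries with high Cd274 were those with the most neutrophil-like cells, which held 92.6% and 71.4% of their Cd274 UMIs. With neutrophil-like cells left out, the log2 fold change was 0.38 ± 0.91 (edgeR adjusted p = 0.991), and without FVIO-MHT 1 it was 1.20 ± 1.13 (edgeR adjusted p = 0.840). With a minimum of 400 detected genes it was 0.75. Of the 332 cells of FVIO-MHT 1, the fit without neutrophil-like cells kept 67 and the fit with 400 genes 27, here and for the members below. Over 16 alternatives the adjusted p, from edgeR or DESeq2, ranged from 0.0876 to 1.00 and the sign stayed positive. Barcodes under the gene minimum had 1215, 866 and 19.5 CPM of Cd274 in FVIO-MHT 1 to 3. In PBS 1 to 3 they had 431, 210 and 516 CPM. Each of these levels was above that of the kept cells of the same library. With all barcodes, Cd274 was at 1114, 559 and 10.4 CPM in FVIO-MHT 1 to 3 and at 207, 80.5 and 239 CPM in PBS 1 to 3.

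Vsir was highest in the same libraries. It was at 204, 73.3 and 32.1 CPM in FVIO-MHT 1 to 3 and at 30.7, 26.9 and 46.7 CPM in PBS 1 to 3. FVIO-MHT 1 and 2 were above all PBS libraries and replicate 3 was within their range. The edgeR log2 fold change was 1.99 ± 0.86 (adjusted p = 0.878), and 0.84 ± 0.59 with neutrophil-like cells left out (adjusted p = 0.905) or 0.60 ± 0.46 without FVIO-MHT 1 (adjusted p = 0.810). The adjusted p over 16 alternatives, from edgeR or DESeq2, ranged from 0.0813 to 1.00. In sums over a tumour, more cells of a class and more RNA per cell cannot be told apart.

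Ctla4 was at 0, 22.2 and 3.43 CPM in FVIO-MHT 1 to 3 and at 125, 5.38 and 17.0 CPM in PBS 1 to 3. The groups overlapped, and PBS 1, whose cells were 21.8% cluster 8, was the high library. The edgeR log2 fold change was -2.19 ± 1.23 (adjusted p = 0.892), and 0.04 without PBS 1. Tigit was at 0, 13.3 and 12.6 CPM in FVIO-MHT 1 to 3 and at 29.5, 14.5 and 17.0 CPM in PBS 1 to 3. It was the 1 member of 9 with every FVIO-MHT library under every PBS library, which held for 9.46% of the genes tested, and FVIO-MHT 1, at 0, had neither cluster 8 nor tumour epithelial-like cells. Its edgeR log2 fold change was -0.84 ± 0.56 (adjusted p = 0.898).

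For Havcr2 the levels were 16.6, 46.6 and 13.7 CPM in FVIO-MHT 1 to 3 and 22.7, 7.54 and 14.9 CPM in PBS 1 to 3, and for Lgals9 88.3, 125 and 44.6 against 51.1, 74.3 and 63.7 CPM. Both overlapped between groups, with edgeR log2 fold changes of 0.99 ± 0.65 (adjusted p = 0.898) and 0.68 ± 0.55 (adjusted p = 0.927). For Havcr2 the value was 0.18 without FVIO-MHT 2 and 0.60 without PBS 2. For Lgals9 it was 1.06 without FVIO-MHT 3, 0.39 without FVIO-MHT 1, 0.23 without neutrophil-like cells and 0.057 with a minimum of 400 detected genes. Pdcd1lg2, Pdcd1 and Lag3, at most 16.6 CPM in any library, did not pass the filter on low counts and overlapped between groups.

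Of the 6 members tested in whole tumours, 0 were called at an adjusted p under 0.05, beside 0 of 8603 genes (0%) in edgeR. At an unadjusted p under 0.05 there were 451 genes, Vsir among them. DESeq2 called 185 genes, 164 higher and 21 lower in FVIO-MHT. It did not call Vsir, Cd274 or Lgals9 (DESeq2 adjusted p = 0.0813, 0.0876 and 0.662). For Ctla4, Havcr2 and Tigit it gave no adjusted p, so they could not be called.

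**Figure D4:**
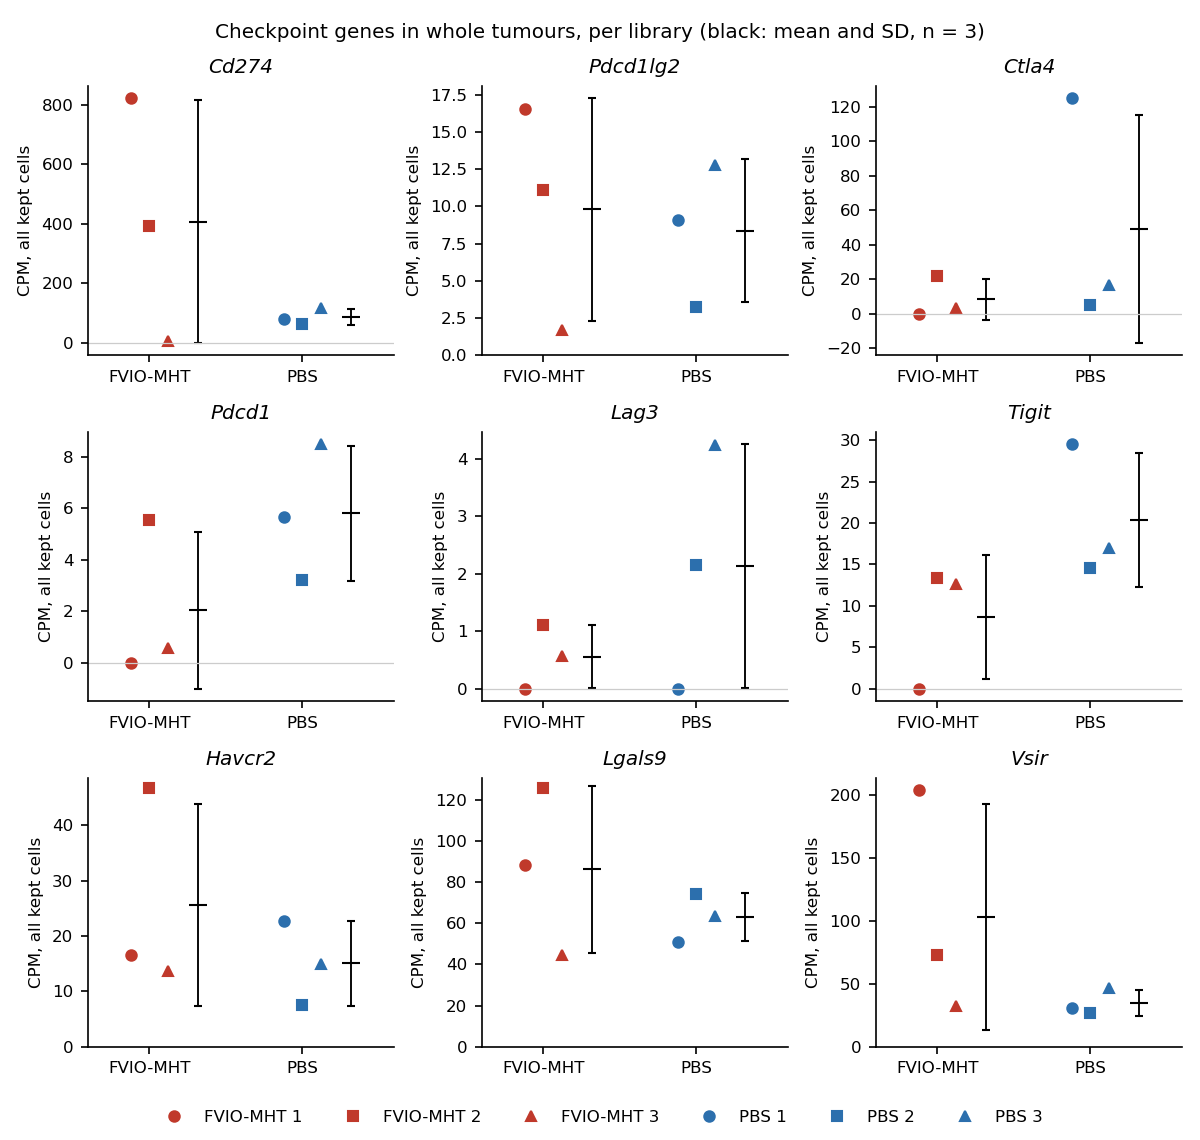
Level of each member (vertical axis, CPM over all kept cells) in the 3 FVIO-MHT and 3 PBS libraries, with the mean and SD of each group in black. Cd274 and Vsir are high in FVIO-MHT 1 and 2 and not in replicate 3, and Ctla4 is high in PBS 1 at 125 CPM.

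**Figure D5:**
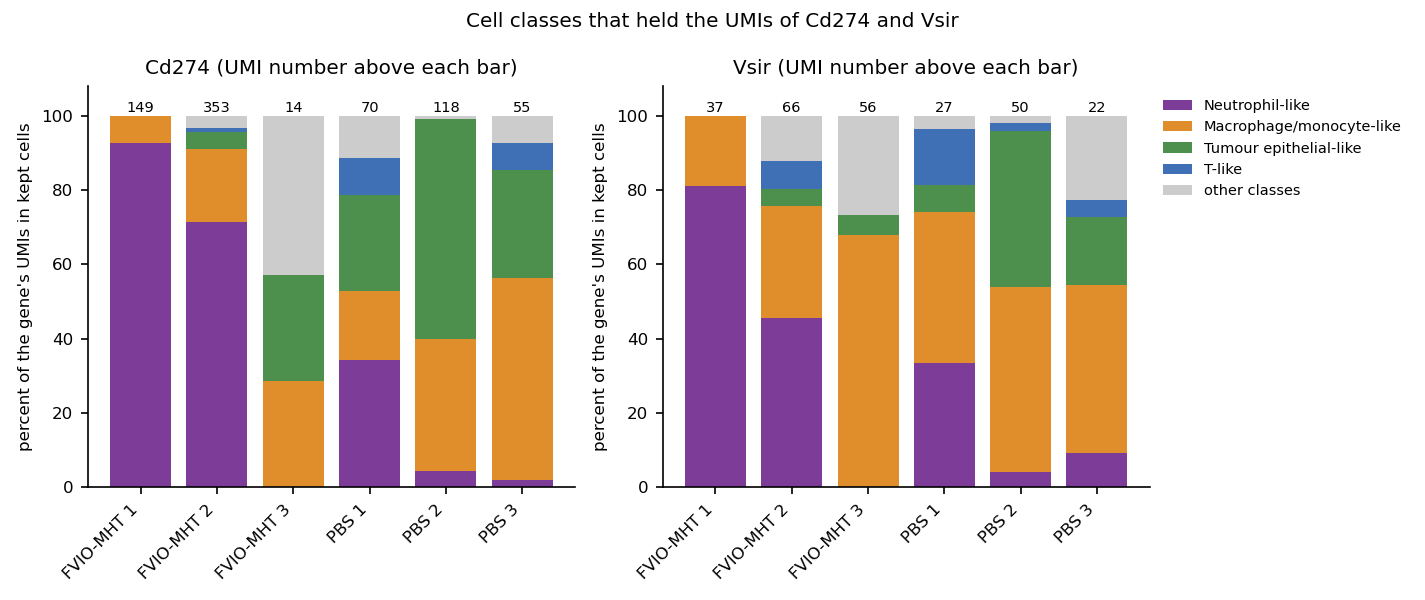
Share of the Cd274 and Vsir UMIs (vertical axis, percent) held by each class in each library (horizontal axis), with the number of UMIs above each bar and classes of any size included. Neutrophil-like cells hold 92.6% and 71.4% of the Cd274 UMIs in FVIO-MHT 1 and 2, and tumour epithelial-like cells 59.3% in PBS 2.

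Within classes, the groups were compared in the same way. In macrophage/monocyte-like cells, with 3 libraries a group, edgeR called 0 of the 4 members tested and 0 of 2100 genes (0%, with 90 at an unadjusted p under 0.05 and 1 called by DESeq2). The log2 fold changes were -0.17 ± 0.80 for Cd274, 0.10 ± 0.42 for Vsir, -0.10 ± 0.78 for Havcr2 and -0.03 ± 0.50 for Lgals9 (edgeR adjusted p = 1.00 each). For Cd274 the sign turned without FVIO-MHT 3 (0.48, edgeR adjusted p = 0.722, the lowest of 15 alternatives), the library with 18.0 CPM. An SE of 0.80 does not show that Cd274 was alike in both groups. In these cells the neutrophil markers summed to 1068 to 6688 CPM in the FVIO-MHT libraries and 494 to 3153 CPM in the PBS libraries, and their part in the group difference was not tested.

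In neutrophil-like cells, with 2 FVIO-MHT libraries and 1 PBS library, edgeR called 0 of 3 members and 0 of 2637 genes (0%, with 60 at an unadjusted p under 0.05 and 1 called by DESeq2). The single PBS library was assumed to vary like the others. The log2 fold change was 0.66 ± 0.92 for Cd274, -0.54 ± 0.90 for Vsir and 0.01 ± 0.98 for Lgals9 (edgeR adjusted p of at least 0.996).

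In tumour epithelial-like cells, with 2 FVIO-MHT and 3 PBS libraries, edgeR called 0 of 3 members and 0 of 7591 genes (0%, with 723 at an unadjusted p under 0.05 and 32 called by DESeq2). Cd274 had a log2 fold change of -1.42 ± 0.78 (edgeR adjusted p = 0.600), which rested on FVIO-MHT 3. Without that library it was -0.23 (edgeR adjusted p = 0.946), and without FVIO-MHT 2 it was -3.69 (edgeR adjusted p = 0.016, with 1 FVIO-MHT library, assumed to vary like the PBS libraries). Over the edgeR alternatives that kept at least 2 libraries in each group, the adjusted p ranged from 0.216 to 0.995. DESeq2 gave no adjusted p for Cd274 here. The low Cd274 of FVIO-MHT 3 was seen in macrophage/monocyte-like cells as well. Lgals9 and Tigit had log2 fold changes of 0.16 ± 0.46 and 0.05 ± 0.50 (edgeR adjusted p = 0.95 and 0.987). In cluster 8 the 1 FVIO-MHT library was assumed to vary like the 3 PBS libraries. There edgeR called 0 of the 1 member tested and 0 of 718 genes (0%, with 38 at an unadjusted p under 0.05 and 0 called by DESeq2), and Ctla4 had a log2 fold change of 0.38 ± 0.67 (edgeR adjusted p = 0.978).

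Shares of cells with a UMI were compared between groups after the same thinning, in 21 comparisons of a member in a class. In macrophage/monocyte-like cells the Cd274 share was 6.76%, 13.2% and 0.649% in FVIO-MHT 1 to 3 and 5.10%, 9.90% and 12.8% in PBS 1 to 3 (unthinned: 15.6%, 22.9%, 0.909%, 11.0%, 18.3% and 21.7%). The groups overlapped (two-sided exact permutation p = 0.7, adjusted p = 1, where 0.1 is the smallest p that 3 against 3 libraries allow). In tumour epithelial-like cells the thinned Cd274 shares were 1.21% and 0.110% in FVIO-MHT 2 and 3 and 1.33%, 1.37% and 2.51% in PBS 1 to 3. The FVIO-MHT shares lay under the PBS shares (exact permutation p = 0.2, adjusted p = 1), though before thinning FVIO-MHT 2, at 5.91%, lay among the PBS shares of 3.46% to 7.91%. In all 21 comparisons the exact permutation test gave an adjusted p of 1.

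Other genes of the checkpoint pathways were counted by list, and 0 genes of any list were called in either direction by edgeR in whole tumours or in any class. Of each list, genes among the 4 with the most UMIs are described, with the class of highest mean level. Of the B7 and CD28 family co-stimulation genes, 4 of 9 were tested in whole tumours, with a median log2 fold change of 0.24 (all genes: -0.04). Icos was highest in cluster 8, at 1791 ± 859 CPM (SD, n = 4), and Cd80, a ligand of CD28 and CTLA-4, in macrophage/monocyte-like cells, at 64.7 ± 30.3 CPM (SD, n = 6). Cd86, the other such ligand, was at 299 CPM in the B/plasma-like cells of PBS 1, and Cd276 was at 84.6 ± 119.6 CPM (SD, n = 2) in endothelial-like cells.

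Around TIGIT, 5 of the 6 listed genes were in the files and 1 was tested. Pvr, which encodes the main ligand of TIGIT, had 298 UMIs and a whole-tumour log2 fold change of -0.14 ± 0.53. Cd226, the activating receptor that competes for it, had 8 UMIs, Cd96 had 5 and Nectin2 (listed as Pvrl2) had 0. Of the other ligands of LAG-3, TIM-3 and VISTA, 3 of 7 were tested, with a median log2 fold change of 0.19. Lgals3, a galectin, had 3500 UMIs and was highest in macrophage/monocyte-like cells (1476 ± 352 CPM, SD, n = 6), and Selplg, a ligand of VISTA, in neutrophil-like cells (237 ± 185 CPM, SD, n = 3). Hmgb1 had 613 UMIs and Ceacam1 had 42.

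Among genes of interferon gamma signalling and PD-L1 control, 14 of 15 were tested in whole tumours, 9 with positive and 5 with negative log2 fold changes and a median of 0.26. Irf1, which drives Cd274 after interferon, was highest in neutrophil-like cells at 675 ± 637 CPM (SD, n = 3), with a whole-tumour log2 fold change of -0.60 ± 0.72. Nfkb1 and Stat3 were highest in cluster 8. In tumour epithelial-like cells the median of the 14 was -0.48 (all genes: 0.01). Of the TNF receptor family co-stimulation genes, 3 of 10 were tested, with a median of -1.06. Tnfrsf9 (4-1BB) was at 455 ± 273 CPM and Tnfrsf18 (GITR) at 255 ± 73.6 CPM in cluster 8 (SD, n = 4), while Cd40 had 102 UMIs and Tnfsf9 had 78.

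For T cell exhaustion and regulatory T cell genes, 8 of 14 were tested and the median was 0.02. Nt5e, which encodes the adenosine-producing enzyme CD73, was highest in tumour epithelial-like cells (292 ± 61.9 CPM, SD, n = 5), and Nr4a3 in cluster 8 (602 ± 270 CPM, SD, n = 4). Nr4a1 and Nr4a2 were highest in pericyte/smooth muscle-like cells, measured in 1 library. All 7 of the 10 myeloid inhibitory receptors and ligands that were tested had positive whole-tumour log2 fold changes, with a median of 1.78 (all genes: -0.04) and 0 called (edgeR). Lilrb4a, an inhibitory receptor of myeloid cells, was at 2885 ± 26.4 CPM in neutrophil-like cells (SD, n = 3), with a whole-tumour log2 fold change of 2.76 ± 1.22 (edgeR adjusted p = 0.878) and -0.58 in macrophage/monocyte-like cells. Sirpa, the receptor of CD47, was highest in macrophage/monocyte-like cells (344 ± 105 CPM, SD, n = 6), and Cd47 in tumour epithelial-like cells (734 ± 185 CPM, SD, n = 5). Neutrophil-like cells were 79.8% and 37.8% of FVIO-MHT 1 and 2 and at most 6.02% of the other libraries, and their part in this median was not tested.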

How the data were processed

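The authors deposited raw UMI counts of each gene in each barcode for 6 Drop-seq libraries. The reads were aligned with STAR 2.7.2b to mm10, per the submitters' processing notes. The sources used here do not give the counting tool, its annotation, its use of strand or the rule that chose the barcodes. Each library lists 5000 barcodes and between 678337 and 2207534 UMIs; 65 repeated gene rows with identical counts were dropped. Barcodes with at least 200 detected genes were kept (a 20% mitochondrial limit removed 0).

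Cells were clustered in Python 3.11.15 with scanpy 1.11.5 and leidenalg 0.10.2 (2000 variable genes, the 9 members left out; 30 principal components; 15 neighbours; resolution 1). A cluster took a class name from at least 3 markers present in 5% of its cells and raised 2-fold. T and NK markers were not set against each other, and a cluster with more tumour epithelial markers than its own was left unnamed; both choices were made after seeing the clusters. No doublet caller was used.

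UMIs were summed per class and library (20 or more cells) and tested with edgeR 4.0.16 in R 4.3.3 (TMM, filterByExpr, quasi-likelihood test, Benjamini-Hochberg adjustment over all genes tested, threshold 0.05), after tests on simulated data. DESeq2 1.42.0 was an alternative. Shares were compared with exact permutation tests (scipy 1.17.1). Alternatives were other size factors, no filter, other gene minimums, resolutions, naming and thinning, leaving out each library, and, chosen after seeing the data, leaving out shared barcodes and the 2% of barcodes with the most UMIs. Positions are from the GENCODE GRCm38 annotation, counted from 1. Sequences are from RefSeq tables; no protein sequence was used here. Genes named beside the members are the 4 of each list with the most UMIs and, for members with at least 100 UMIs, the 3 most alike. A gene that this rule names is not reported here. The members and lists were chosen with earlier results of these data known.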

Additional observations from a re-analysis of the deposited data

Results flagged for a closer look

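Barcodes under the minimum of 200 detected genes were outside the main comparisons. In them Havcr2 was at 26.7, 42.8 and 26.1 CPM in FVIO-MHT 1 to 3, from 14, 21 and 12 UMIs, above the highest PBS library, which had 16.5 CPM. This was noted as a signal in data outside the main measurement, above the level of the control libraries. In the same barcodes every FVIO-MHT library lay over every PBS library for 1.77% of the genes tested in whole tumours. Fits that add these barcodes did not call Havcr2: the edgeR log2 fold change was 1.43 (adjusted p = 0.840) with a minimum of 100 detected genes and 1.44 (adjusted p = 0.815) with all 5000 barcodes of each library. In the kept cells the Havcr2 levels of the groups overlapped.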

How the results depend on the processing

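The limits are the 3 libraries a group, the few UMIs of Lag3, Pdcd1 and Pdcd1lg2, and the unequal makeup of the libraries. Of the values recomputed under an alternative, 276 were scored as the same. These kept their direction and their side of the threshold, or moved by less than a limit set for that kind of value. A further 18 turned sign, 14 moved by more than the limit and 1 was scored as stronger. Where DESeq2 gave no adjusted p there was no side of the threshold, so only the direction could be compared. DESeq2 called 185 genes in whole tumours, 1 in macrophage/monocyte-like, 1 in neutrophil-like and 32 in tumour epithelial-like cells, and edgeR without a filter on low counts called 2, 24, 1 and 165. Leaving out 1 library gave 0 to 2 calls in macrophage/monocyte-like cells, 0 to 227 in tumour epithelial-like cells (227 without FVIO-MHT 2) and 0 to 14 in T-like cells (14 without PBS 1). With the replicate block, 31 genes were called in tumour epithelial-like cells and the log2 fold changes there were -0.043 for Lgals9 and -0.057 for Tigit. Deviations from the group mean had r of 0.16, 0.0027 and -0.09 for replicates of the same number, and 0.32 for FVIO-MHT 3 and PBS 2. With 3 libraries a group of unequal makeup, these r cannot tell whether the numbers pair libraries. The labels state no pairing. The neutrophil-like and T-like fits could not be made with the block. Signs turned when 1 library was left out. The log2 fold change ranged from -4.00 to 0.041 for Ctla4 in whole tumours. In macrophage/monocyte-like cells it ranged from -1.28 to 0.48 for Cd274, -0.58 to 0.55 for Havcr2, -0.21 to 0.24 for Lgals9 and -0.042 to 0.27 for Vsir. In tumour epithelial-like cells it ranged from -0.72 to 0.79 for Lgals9 and -0.053 to 0.12 for Tigit. Signs also turned for Vsir in macrophage/monocyte-like cells under stricter naming (-0.013), for Lgals9 there in DESeq2 (0.012), for Lgals9 in neutrophil-like cells without the 2% of barcodes with the most UMIs (-0.042) and for Tigit in tumour epithelial-like cells at resolution 0.5 (-0.11). The mean Cd274 level of neutrophil-like cells was 699.8 CPM with classes from markers alone, where no library had 20 T-like cells. The causes were not tested.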
